A study of Mus musculus with 12 samples.

Results

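The 9 genes described here encode the CD3 chains of the T cell receptor complex and the proteins that first pass on its signal: Cd3e, Cd3d, Cd3g, Cd247, Zap70, Lat, Lcp2, Cd2 and Plcg1. They were chosen by name, and are 9 of the 18193 mouse genes with a probe set named for them alone on the arrays. The 9 genes have 17 such probe sets; each gene is given by the probe set with the highest mean log2 intensity over the 12 arrays, and the other probe sets of the 4 genes with several are set beside it. The arrays profile a mouse model of T cell lymphoma driven by ZMYM2-FGFR1, a fusion of a zinc finger protein with the kinase part of a growth factor receptor. Normal double-positive (DP) thymocytes, Thy1+ cells carrying both CD4 and CD8, were sorted from Balb/c thymuses, each of the 3 samples from 3 mice. The 4 T lymphoma samples came from ZMYM2-FGFR1 mice after the third serial transplant. Lymphomas 1 to 3 were not sorted, with over 90% of cells GFP+ Thy1+ DP+, and lymphoma 4 was sorted for those cells. Haematopoietic stem cells (HSC, lineage-negative Sca-1+ c-kit+ marrow cells) came in 2 samples, each from 5 normal female Balb/c mice. Leukaemic stem cells (LSC), sorted by those markers and GFP, came in 2 samples, each from marrow or spleen of 2 to 3 leukaemic ZMYM2-FGFR1 mice. ZNF112, given 1 array, is described in the labels only as a cell line.

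The T cell receptor itself has no signalling domain. It is held at the surface by the CD3 gamma, delta, epsilon and zeta chains, encoded by Cd3g, Cd3d, Cd3e and Cd247, whose tails are phosphorylated when the receptor binds and then recruit the kinase ZAP-70. ZAP-70 phosphorylates the membrane adaptor LAT and the cytosolic adaptor SLP-76, encoded by Lcp2, which together bring in phospholipase C gamma 1, the product of Plcg1, while CD2 is an adhesion receptor that binds partner molecules on other cells. In the thymus most of these genes are switched on as progenitors commit to the T lineage, and the DP stage tests the assembled receptor.

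In the RefSeq annotation all 9 genes matched by identifier and symbol. Cd3g, Cd3d and Cd3e stand next to each other on chromosome 9, with no other annotated gene between them, while Cd247 and Zap70 lie on chromosome 1. The 190 bases just upstream of each of the 3 neighbouring genes are shown because these genes are neighbours and had similar profiles over the 12 arrays (Pearson r of 0.970 to 0.997 between pairs). They are from RefSeq's GRCm38.p6, on the gene's strand: Cd3g at chr9:44980432-44980621 (minus strand), Cd3d at chr9:44981579-44981768 (plus strand) and Cd3e at chr9:45009664-45009853 (minus strand). Capitals mark matches to the E-box motif, spelled CANNTG and the same on either strand, and to the core motif of RUNX factors. The letters of that core are TGTGG on 1 strand and read CCACA where the motif lies on the opposite strand.
Cd3g: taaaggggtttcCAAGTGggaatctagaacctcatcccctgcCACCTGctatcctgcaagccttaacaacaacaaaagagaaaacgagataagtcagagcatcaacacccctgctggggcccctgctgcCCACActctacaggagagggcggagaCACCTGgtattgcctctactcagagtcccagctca
Cd3d: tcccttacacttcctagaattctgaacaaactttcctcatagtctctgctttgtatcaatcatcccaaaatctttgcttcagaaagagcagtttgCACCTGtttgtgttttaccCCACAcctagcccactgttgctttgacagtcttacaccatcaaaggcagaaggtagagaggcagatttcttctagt
Cd3e: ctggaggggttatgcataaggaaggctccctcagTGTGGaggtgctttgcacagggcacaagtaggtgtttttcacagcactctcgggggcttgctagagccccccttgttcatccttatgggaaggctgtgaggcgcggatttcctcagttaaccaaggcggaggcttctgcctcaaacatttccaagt

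The Cd3g stretch held 3 E-box matches and 1 RUNX core match, the Cd3d stretch 1 of each, and the Cd3e stretch 0 E-box matches and 1 RUNX core match. The matches of the 2 motifs did not overlap in any of the 3 stretches. Both motifs are common: over 32851 promoters, 56.1% held an E-box and 40.1% a RUNX core match in the same length before the start. The matches describe letters and were not tested as binding sites.

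The deposited values were taken to log2. Array medians lay between 99.2 and 109 on the T cell side (DP thymocytes, lymphomas and cell line) and between 44.2 and 46 on the HSC and LSC arrays, the stem cell side, so differences were taken within a side only. A level across sides carries this offset, or is given minus the array's median. All 10 defining DP genes (Cd4, Cd8a, Rag1 and others) were above log2 6.33, the median of all values, on the DP and lymphoma arrays, and 9 of 10 on the cell line array. In the LSC 8 of 10 were above it, against 3 to 5 in the HSC. This level lay below the median of every T cell side array (log2 6.63 to 6.77). It lay above that of every stem cell side array (5.47 to 5.52), so such counts compare within a side. The ratio of 3' to 5' actin signal, a measure of RNA integrity, was 2.18 to 2.23 in DP thymocytes, 2.44 to 3.69 in lymphomas, 3.91 and 5.79 in HSC, and 9.82 and 13.6 in LSC. Differences were tested with limma over 12797 genes, with 1 spread shared by the groups, and a gene is called at a Benjamini-Hochberg adjusted p under 0.05. All 9 genes passed the filter for this test, which asked for a value above log2 6.33 on at least 2 arrays.

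**Figure D1:**
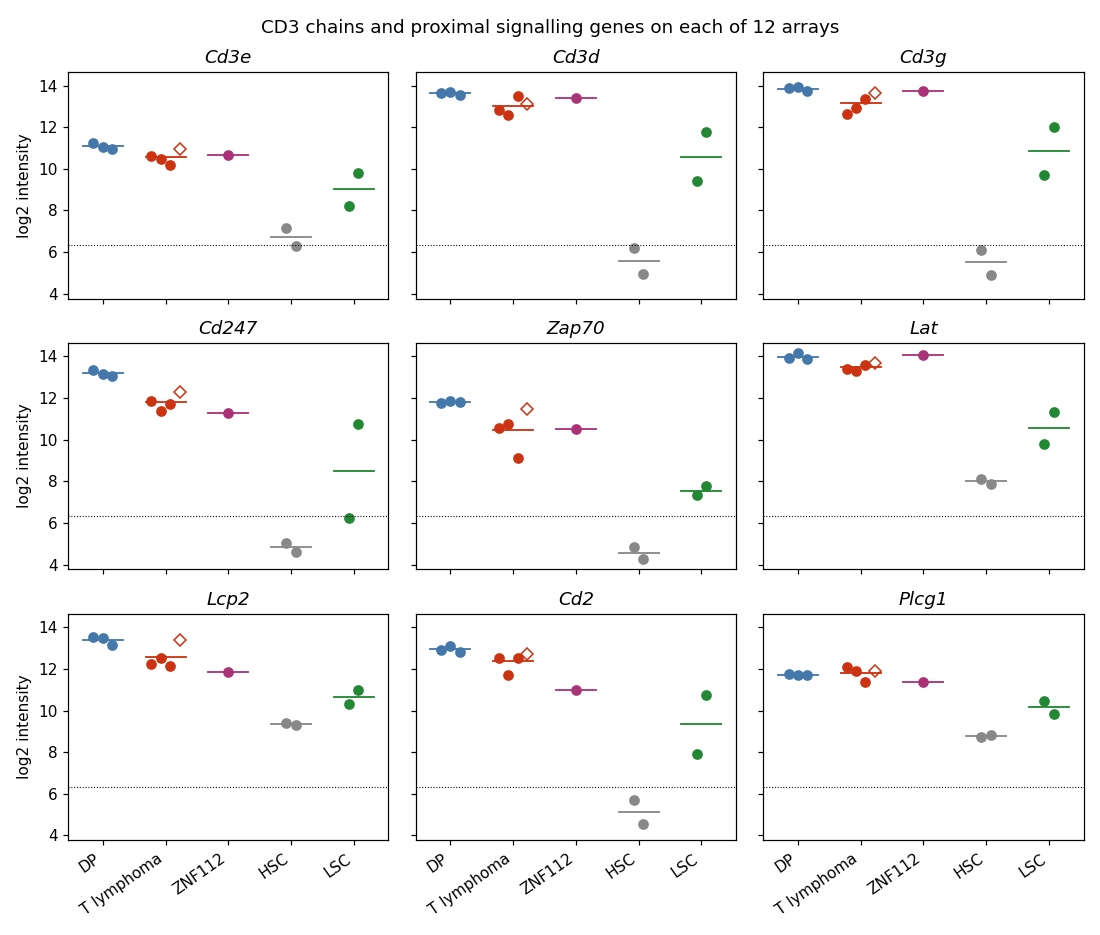
The log2 intensity of each of the 9 genes on each of the 12 arrays, by group; points are arrays, the open diamond is the sorted lymphoma, horizontal bars are group means and the dotted line is log2 6.33. Every gene was higher in both LSC arrays than in both HSC arrays, and the T cell side arrays of Cd3d lay between 12.59 and 13.68.

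The lymphomas carried transcripts of the whole CD3 complex, at 43.5% to 92.8% of the mean of DP thymocytes for Cd3d, Cd3e and Cd3g and 28.7% to 52.8% for Cd247 on the linear scale. Cd3g measured log2 13.88, 13.92 and 13.73 in the DP thymocytes, 12.64, 12.91 and 13.37 in the unsorted lymphomas, and 13.65 in the sorted lymphoma. All 4 lymphomas lay below the lowest DP array, the sorted one by little. Cd3d gave 13.66, 13.68 and 13.56 in DP thymocytes, 12.80, 12.59 and 13.48 in the unsorted lymphomas and 13.10 in the sorted one. Lymphoma 3 came closest to the DP arrays here, and again the groups did not overlap. Cd3e gave 11.25, 11.06 and 10.93 in DP thymocytes, 10.59, 10.47 and 10.20 in the unsorted lymphomas and 10.97 in the sorted one, which fell within the DP range. The mean differences between T lymphoma and DP thymocytes were -0.70 ± 0.52 (SE) for Cd3g, -0.64 ± 0.52 for Cd3d and -0.52 ± 0.37 for Cd3e, with limma adjusted p of 0.472, 0.514 and 0.452.

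Cd247, the zeta chain with the most phosphorylation motifs of the complex, had the widest gap of the 4 chains. It measured 13.36, 13.14 and 13.08 in DP thymocytes, 11.86, 11.39 and 11.73 in the unsorted lymphomas and 12.27 in the sorted lymphoma. All 4 lymphomas lay below the DP arrays, without overlap. The difference was -1.38 ± 0.83 (SE) with a limma adjusted p of 0.363 in the fit of all 12 arrays, so it was not called. Its SD was 0.15 in DP thymocytes and 0.36 in lymphomas but 3.18 between the 2 LSC arrays, which enter the shared spread. With the 7 DP and lymphoma arrays alone the difference was -1.38 ± 0.21 and limma's adjusted p 0.00782; Cd247 was then called lower, as 7.72% of all genes tested were, and the other 8 genes were not. The 3 dimmer Cd247 probe sets gave differences of -0.80, -0.76 and -1.32, of the same sign and uncalled in the 12 arrays.

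ZAP-70 binds the phosphorylated chains and starts the cascade. Its transcript measured 11.76, 11.88 and 11.82 in DP thymocytes, 10.57, 10.74 and 9.12 in the unsorted lymphomas and 11.49 in the sorted lymphoma. Lymphoma 3 was far below the others, the sorted lymphoma was nearest to the DP arrays, and the groups did not overlap. The difference was -1.34 ± 0.47 (SE; unadjusted p = 0.0182, limma adjusted p = 0.132). Probe set 1440178_x_at, of a type that can also bind related transcripts, gave -0.80. Probe set 1439749_at lay between 8.61 and 8.90 on all 8 arrays of the T cell side and between 7.20 and 7.71 on the stem cell side, so it followed none of these differences.

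The next genes encode the adaptors LAT and SLP-76. Lat gave 13.94, 14.16 and 13.87 in DP thymocytes, 13.40, 13.29 and 13.61 in the unsorted lymphomas and 13.68 in the sorted one, without overlap, a difference of -0.50 ± 0.32 (SE; limma adjusted p = 0.393). Lcp2 gave 13.53, 13.50 and 13.17 in DP thymocytes and 12.24, 12.54 and 12.12 in the unsorted lymphomas, but 13.38 in the sorted lymphoma, inside the DP range. The Lcp2 difference was -0.83 ± 0.31 (SE; unadjusted p = 0.0245, limma adjusted p = 0.154), and -0.58 by its dimmer probe set. Cd2 measured 12.92, 13.12 and 12.83 in DP thymocytes, 12.51, 11.72 and 12.54 in the unsorted lymphomas and 12.74 in the sorted lymphoma, a difference of -0.58 ± 0.59. The Cd2 groups did not overlap, though the sorted lymphoma lay close to the lowest DP array.

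Plcg1, the enzyme that makes the second messengers for calcium release and protein kinase C, did not share this order. Its values were 11.76, 11.69 and 11.70 in DP thymocytes, 12.10, 11.88 and 11.39 in the unsorted lymphomas and 11.89 in the sorted one. Lymphomas lay on both sides of the DP arrays, with a difference of 0.10 ± 0.21 (SE; 95% interval -0.38 to 0.58; limma adjusted p = 0.840). A dim Plcg1 probe set, 1450360_at, gave -0.65 ± 0.15 and was called in a fit of all probe sets (limma adjusted p = 0.037), but was above log2 6.33 on only 3 arrays. The third probe set of Plcg1 was above it on 0 arrays and was not tested.

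Of the 9 genes, 0 were called between T lymphoma and DP thymocytes in the fit of 12 arrays, where 6.55% of all genes tested were called in either direction, and 2 (Zap70 and Lcp2) had an unadjusted p under 0.05. Their median difference was -0.64, against -0.02 over all genes tested, and 8 of 9 were below 0, against 51.6% of all genes. All 4 lymphomas were below all 3 DP arrays for 6 of the 9 genes (Cd3d, Cd3g, Cd247, Zap70, Lat and Cd2), as for 19.1% of all genes tested.

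**Figure D2:**
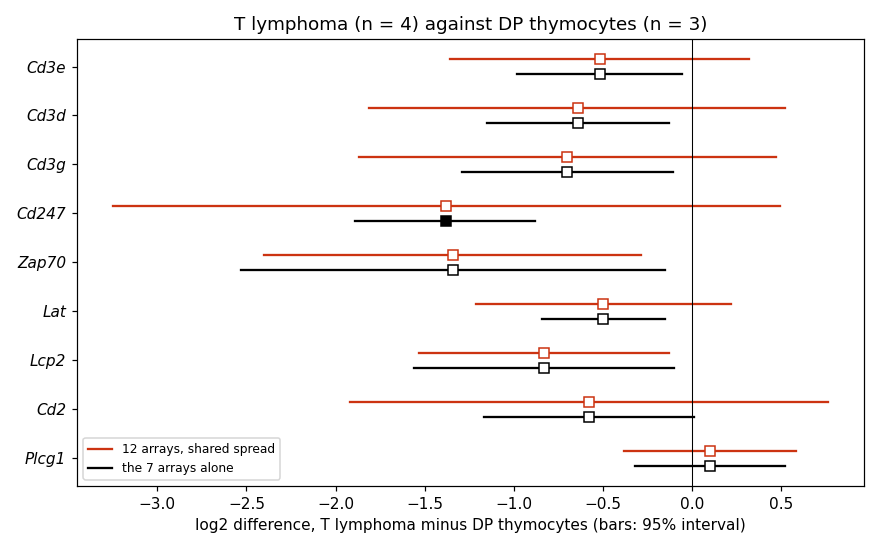
Log2 difference between T lymphoma (n = 4) and DP thymocytes (n = 3) for each gene, with 95% intervals, from the fit of 12 arrays and from the fit of the 7 arrays alone; a filled square is a call at limma adjusted p under 0.05. The Cd247 interval narrowed from -3.25 to 0.49 in the 12 arrays to -1.89 to -0.88 in the 7 arrays, and Plcg1 lay around 0 in both.

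The sorted lymphoma, included in the series to see what sorting does, had the higher value than the mean of the unsorted lymphomas for all 9 genes. Over all genes tested 45.2% were lower in the sorted lymphoma. Lcp2 differed by 1.08 ± 0.32 (SE; unadjusted p = 0.00911, limma adjusted p = 0.281) and Zap70 by 1.35 ± 0.58 (unadjusted p = 0.0475, limma adjusted p = 0.496). For the other 7 genes the difference ran from 0.10 in Plcg1 to 0.68 in Cd3g. By limma 0 of the 9 genes were called, where 0.656% of all genes tested were, and the test took the spread of the other groups for the 1 sorted array. The summed intensity of 13 macrophage markers was 29300 to 66800 in the unsorted lymphomas, with 13 of 13 above log2 6.33, against 3780 in the sorted lymphoma, with 7 of 13 above it, and 1560 to 1720 in DP thymocytes. That of 11 stromal and endothelial markers was 18100 to 36300 in the unsorted lymphomas, 942 in the sorted one and 992 to 1120 in DP thymocytes. The part of these cells in the lymphoma values was not tested, and in such bulk samples fewer cells of a type and less RNA per cell cannot be told apart. The sorted lymphoma is labelled as a separate biological replicate. With 1 sorted array, sorting and a difference between tumours cannot be told apart either.

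Against DP thymocytes the unsorted lymphomas alone gave -1.68 ± 0.41 (SE) for Zap70 and -1.10 ± 0.23 for Lcp2, both called (limma adjusted p = 0.0331 and 0.0171). In that fit 698 of the 12797 genes tested were called lower and 874 higher. The sorted lymphoma alone, 1 array, gave -0.33 ± 0.58 for Zap70, -0.02 ± 0.32 for Lcp2 and -0.92 ± 1.30 for Cd247. Its level as a share of the DP mean was 98.6% for Lcp2, 92.8% for Cd3e, 87.6% for Cd3g, 79.5% for Zap70 and 52.8% for Cd247. Cd247 was thus the gene of the 9 with the lowest share of the DP level in the sorted tumour.

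**Figure D3:**
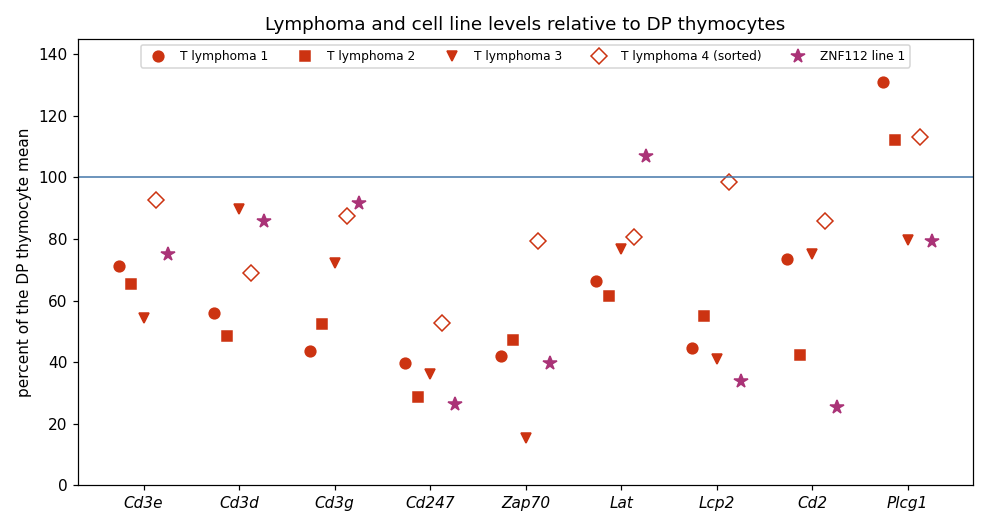
Level of each gene in each lymphoma and in the ZNF112 cell line as a percent of the DP thymocyte mean, on the linear scale, with the DP mean drawn at 100. Cd247 ran from 26.4% in the cell line to 52.8% in the sorted lymphoma, whereas the cell line had 107% of the DP level of Lat and 25.6% of that of Cd2.

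The ZNF112 cell line also carried the full set of transcripts, measured on 1 array without a replicate. Cd3g (13.72), Cd3d (13.42) and Cd3e (10.67) stood at 91.7%, 85.9% and 75.2% of the DP mean, and Lat (14.08) at 107%. Cd247 (11.27) stood at 26.4%, Cd2 (10.99) at 25.6%, Lcp2 (11.84) at 34.0% and Zap70 (10.49) at 39.8% of the DP mean. The values for Cd247, Cd2 and Lcp2 were lower than in each of the 4 lymphomas. Those for Lat and, by little, Cd3g (13.65 in the sorted lymphoma) were higher. Plcg1 stood at 11.39, 79.4% of the DP mean, against 79.7% in lymphoma 3. Against the lymphoma mean, Cd2 differed by -1.39 ± 0.87 (SE), Lcp2 by -0.73 ± 0.45, Lat by 0.59 ± 0.46 and Cd3g by 0.57 ± 0.76. By limma 0 of the 9 genes were called, where 1.16% of all genes tested were, and 0 had an unadjusted p under 0.05.

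Normal HSC had values under log2 6.33 for most of these genes, a level above the medians of the HSC arrays (5.52 and 5.49). Both HSC arrays were below log2 6.33 for Cd3d (6.17 and 4.93), Cd3g (6.11 and 4.91), Cd247 (5.06 and 4.59), Zap70 (4.83 and 4.26) and Cd2 (5.72 and 4.56). On HSC 1 the values of Cd3d, Cd3g and Cd2 were above that array's own median, while on HSC 2 they were below its median. Cd3e was above it on HSC 1 (7.17) and just below on HSC 2 (6.30). Lat (8.12 and 7.89), Lcp2 (9.41 and 9.33) and Plcg1 (8.73 and 8.81) were above it on both.

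The LSC arrays, though sorted by stem cell markers, had higher values than HSC for every gene, and they differed from each other. Cd3g was 9.71 on LSC 1 and 12.01 on LSC 2, at least 10.5 and 51.5 times the HSC level, and Cd3d was 9.41 and 11.76, at least 8.45 and 43.3 times. These folds are lower bounds, taken against log2 6.33 because both HSC arrays were under it. Cd3e was 8.23 and 9.79, or 2.81 and 8.31 times the HSC mean. Each of these 3 genes was higher in LSC 2, with a gap of 1.56 to 2.36 on the log2 scale. Cd247 was 6.26 on LSC 1, below the log2 6.33 level, and 10.75 on LSC 2, a gap of 4.50. LSC 2 was at least 21.5 times the HSC level for Cd247, and no fold is given for LSC 1, since it and both HSC arrays were under the level.

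Signalling genes followed 3 patterns across the LSC arrays. Cd2 was 7.93 and 10.77, with LSC 2 higher as for the chains. Lat was 9.78 and 11.32, and Lcp2 10.30 and 10.98, also higher in LSC 2. Zap70 was nearly level at 7.33 and 7.77, and Plcg1 was higher on LSC 1 (10.47) than on LSC 2 (9.84). LSC 2 was above LSC 1 for 8 of the 9 genes, against 51.3% of all genes tested.

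**Figure D4:**
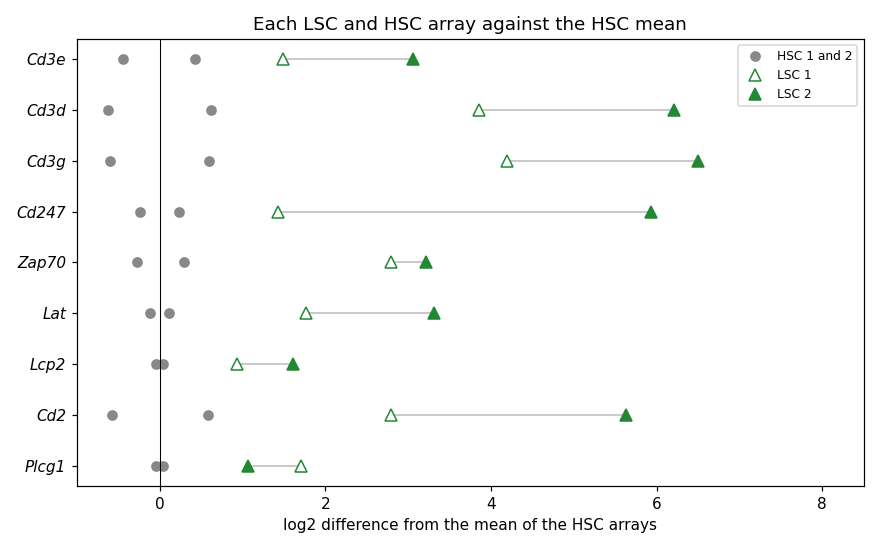
Log2 difference of each HSC and LSC array from the mean of the HSC arrays, for each gene; grey points are HSC 1 and 2, the open triangle is LSC 1 and the filled triangle LSC 2. All LSC points lie to the right of the HSC points, and the LSC arrays were 4.50 apart for Cd247 and 0.44 apart for Zap70.

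Between LSC and HSC the mean differences of the chains were 5.35 ± 0.68 (SE) for Cd3g, 5.03 ± 0.68 for Cd3d and 2.27 ± 0.49 for Cd3e, called at limma adjusted p of 0.00188, 0.00259 and 0.0199. The difference of Cd247 was 3.68 ± 1.09 and was not called (limma adjusted p = 0.0634). Zap70 differed by 3.00 ± 0.61 (limma adjusted p = 0.0161), Lat by 2.54 ± 0.41 (0.00612), Cd2 by 4.21 ± 0.78 (0.0106) and Plcg1 by 1.38 ± 0.28 (0.0154), all called higher. The Plcg1 call was not made with the mean of its probe sets (0.54 ± 0.17, adjusted p = 0.0847) or without HSC 1 (1.34 ± 0.35, adjusted p = 0.0553), both by limma, and its probe set 1450360_at gave 0.26 ± 0.20. Lcp2 differed by 1.27 ± 0.41 and was not called (limma adjusted p = 0.0816). Of the 9 genes 7 were thus called higher in LSC, where 4.05% of all genes tested were called higher, and the median difference was 3.00 against -0.03 over all genes. Both LSC arrays were above both HSC arrays for 9 of 9 genes, as for 20.5% of all genes tested.

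These calls lean on the spread shared with the other groups: with the 4 HSC and LSC arrays alone limma called 0 of the 9 genes and 0 of all 12797 genes, although 8 and 1535 had an unadjusted p under 0.05, at 2 arrays a group. Without HSC 2, which left 1 HSC array, only Cd3d, Cd3g and Lat stayed called. Fewer of all genes tested were called higher in that fit too. With values under log2 6.33 set to that level, the difference of Zap70 was 1.22 ± 0.61 and no longer called (limma adjusted p = 0.291), since both HSC arrays were below it. That of Cd3d was then 4.26 ± 0.62 and that of Cd3g 4.54 ± 0.63, both still called, and that of Cd247 2.21 ± 1.10. The Zap70 probe set 1439749_at gave -0.04 ± 0.24 between LSC and HSC, while 1440178_x_at gave 1.38 ± 0.32 and was called (limma adjusted p = 0.0275 over all probe sets).

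**Figure D5:**
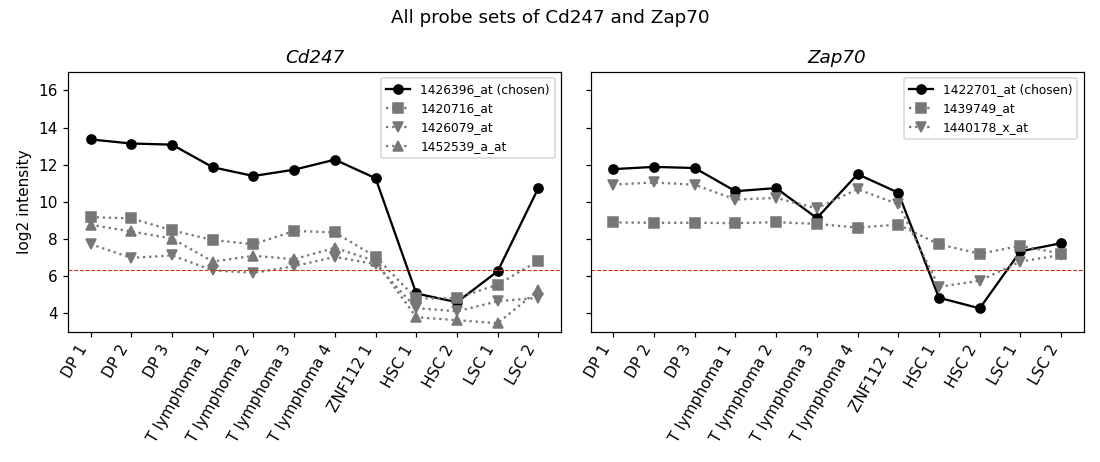
Log2 intensity of all probe sets of Cd247 and Zap70 on the 12 arrays, joined by lines to follow a probe set, with the dashed line at log2 6.33. The chosen Cd247 probe set and 1420716_at both have LSC 2 above LSC 1, and Zap70 probe set 1439749_at stays between 7.20 and 8.90 on every array.

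Markers of other cells moved with the LSC arrays. The summed intensity of the 10 DP thymocyte genes was 7490 on LSC 1 and 24200 on LSC 2, against 3620 and 5170 in HSC. Dntt was the highest of that list in HSC (11.50 and 12.18), against 11.44 and 12.62 in LSC. Within that list Thy1 was 8.67 and 12.51 and Cd8a 8.81 and 11.70 on LSC 1 and 2, while Cd4 stayed at 6.28 and 5.81, under the level. Rag2 on LSC 1 (5.83) and Ptcra on LSC 2 (5.53) were also under the level. Megakaryocyte and mast cell markers summed to 56000 on LSC 1, with 9 of 10 above log2 6.33, and to 433 on LSC 2, with 0 of 10 above it. On HSC 1 and 2 they summed to 10000 and 10600, with 9 of 10 above it on both. Mast cell genes led that list on LSC 1, with Cpa3 at 14.48, Fcer1a at 13.99 and Ms4a2 at 13.76. Macrophage markers summed to 32600 on LSC 1 and 4500 on LSC 2, against 38200 on HSC 1 and 8180 on HSC 2. NK cell markers summed to 2920 and 5380 in LSC and 891 and 2480 in HSC, with the NK receptor genes Ncr1 and Klra8 under the level on every array. Most of that sum came from the cytotoxic granule genes Gzmb, at 10.69 and 10.65 in LSC against 5.44 and 6.40 in HSC, and Nkg7, at 9.94 and 11.77 against 9.25 and 11.12. Stem cell markers summed to 13900 on LSC 1, with 7 of 10 above the level, and to 3580 on LSC 2, with 4 of 10, against 10200 and 14000 in HSC, with 10 of 10. Cd34 was 10.63 on LSC 1 and 5.10 on LSC 2, and Meis1 8.19 and 4.93, while Kit was 12.31 and 10.99. Kit and Gata2 (12.39 and 6.94) were the highest of that list on LSC 1. Hlf was 5.37 and 4.77 in LSC against 10.66 and 11.10 in HSC, and Mecom 5.92 and 4.08 against 9.80 and 10.38. Slamf1 went the other way, at 8.70 and 9.95 in LSC against 7.61 and 8.45 in HSC. The part of these cell types, and of the higher actin ratio of the LSC arrays, in the 9 genes was not tested.

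Whether the change from normal to diseased cells differed between the sides was tested as the difference of the contrasts, T lymphoma minus DP less LSC minus HSC. It was -6.05 ± 0.85 (SE) for Cd3g, -5.68 ± 0.85 for Cd3d, -4.79 ± 0.98 for Cd2, -4.35 ± 0.77 for Zap70, -3.04 ± 0.52 for Lat, -2.79 ± 0.61 for Cd3e and -2.10 ± 0.51 for Lcp2. These 7 of 9 genes were called lower by limma (adjusted p from 0.00415 to 0.036), where 3.59% of all genes tested were. Cd247 (-5.06 ± 1.37, limma adjusted p = 0.0519) and Plcg1 (-1.28 ± 0.35, 0.053) lay just outside the threshold. With the sorted lymphoma alone on the T cell side, only Cd3d and Cd3g were called, and without HSC 2 or any 1 DP array the count was 4. With values under log2 6.33 set to that level, Zap70 (-2.56 ± 0.76, limma adjusted p = 0.0752) and Cd2 (-3.60 ± 0.94, 0.0501) were no longer called, and Plcg1 was (-1.28 ± 0.32, 0.0447). With the mean of probe sets Lcp2 was not called (-1.87 ± 0.56, limma adjusted p = 0.0727), and Cd247 was (-2.63 ± 0.66, 0.0431). Zap70 probe set 1439749_at gave -0.05 ± 0.30, while 1440178_x_at gave -2.18 ± 0.40 and was called.

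Set across all groups, minus the array's median, 7 of the 9 genes were highest in DP thymocytes and all 9 lowest in HSC. Levels of the CD3 chains averaged 6.15 to 6.33 in DP thymocytes, 5.14 to 5.87 in the lymphomas, 5.57 in the cell line, 2.94 and 5.59 in LSC 1 and 2, and 0.60 and -0.30 in HSC. LSC 2 thus lay within the range of the lymphomas and LSC 1 between them and the HSC. Cd3e on LSC 2 reached 93.7% of the DP mean on this scale, Cd3g 64.2%, Cd3d 62.5% and Cd247 42.2%, while Zap70 reached 13.8%. On LSC 1 Cd247 was at 1.90%, Zap70 at 10.4% and Plcg1 at 97.9%. Lat was highest in the cell line (7.38 against 7.31 in DP thymocytes) and Plcg1 in the lymphomas (5.10 against 5.03), and neither order exceeded the spread between arrays. On this scale the cell line lay inside the range of the lymphomas for Cd3e, Cd3g, Zap70 and Plcg1 and about level with the highest lymphoma for Cd3d (84.7% against 84.6% of the DP mean), so those neighbours in the order did not separate either.

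Outside the 9 genes, those whose pattern was most like the mean of the 4 chains over the 12 arrays were Thy1 (Pearson r = 0.996), the receptor beta segment Trbv1 (0.991), the SLAM adaptor gene Sh2d1a (0.990), the transcription factor gene Ets1 (0.990) and the adaptor gene Skap1 (0.989). Over the 8 arrays of the T cell side alone the same 5 genes gave 0.938, 0.917, 0.926, 0.855 and 0.915. Of the other members, Cd2 gave r = 0.983 over 12 arrays and 0.643 over 8, and Lat gave r = 0.977 over 12 arrays and 0.811 over 8, Zap70 0.933 and 0.750, Lcp2 0.887 and 0.820, and Plcg1 0.834 and -0.0339. Of the neighbours whose upstream bases are shown above, Cd3d and Cd3g correlated at 0.997 over 12 arrays and 0.885 over 8. Over the 8 arrays Cd3e correlated at 0.525 with Cd3d and 0.706 with Cd3g. Some pairs on different chromosomes were higher there, as Cd3g with Lat (0.915) and Cd3e with Zap70 (0.938), so the likeness was not particular to neighbours. These values describe arrays that fall into groups, which the 12-array correlations largely reflect.

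Around these genes, 86 other genes of the receptor pathway were listed, of which 79 were tested. Between T lymphoma and DP thymocytes 3 were called higher, where 3.37% of all genes tested were, and 10 lower, where 3.18% were, with a median difference of -0.36. The largest were in receptors that dampen or aid signalling: Cd5 at -6.82 ± 0.33 (SE), Cd6 at -5.17 ± 0.24 and Cd4 at -2.88 ± 0.40. Rasgrp1, an activator of Ras (-2.09), Dgkz, a kinase that removes diacylglycerol (-1.92), and the adaptor gene Sla (-1.49) were also lower, while Nfatc2, a calcium-responsive factor (2.18), and Cblb, a ubiquitin ligase (1.84), were higher. The other calls, named after their values were seen, were Nfatc3 (-1.47), Dok2 (-1.28), Carmil2 (-1.17), Vav1 (-0.90) and Ptpn2 (0.74). By list, 1 of 15 kinases and phosphatases, 5 of 30 adaptors, 4 of 20 downstream genes and 3 of 14 coreceptors were called.

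In LSC against HSC 20 of the 79 pathway genes were called higher and 1 lower, where 4.05% and 6.21% of all genes tested were, with a median difference of 0.89. Camk4, a calcium-dependent kinase (7.08 ± 0.51, SE), Themis, a thymocyte adaptor (5.90 ± 0.49), and Txk, a Tec family kinase (5.85 ± 0.38), led, followed by Trat1 (5.71), Skap1 (5.40), Sh2d1a (4.82), Thy1 (4.50) and Cd8a (4.41). Txk was 9.95 and 10.31 on LSC 1 and 2, and Camk4 10.29 and 11.89. Dgkz was the gene called lower (-1.21), named after its values were seen. Cd5 stood at 4.44 and 4.30 and Cd6 at 4.84 and 4.60 in LSC, under log2 6.33. By list, 5 of 15 kinases and phosphatases (Txk, Tec, Ptprc, Ptpn22 and Ptpn2), 10 of 30 adaptors, 2 of 20 downstream genes (Nfatc2 and Camk4) and 3 of 14 coreceptors (Cd8a, Cd8b1 and Thy1) were called higher.

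For the difference of the contrasts 20 of the 79 pathway genes were called lower and 0 higher, where 3.59% and 5.28% of all genes tested were, led by Camk4 (-8.37 ± 0.64, SE) and Themis (-6.76 ± 0.61). In the cell line against the lymphomas 5 of 79 were called lower, where 0.617% of all genes tested were, and 0 higher, where 0.539% were. They were Cd8b1 (-6.03 ± 1.01), Cd4 (-3.44 ± 0.59), Ptpn22 (-3.43 ± 0.61), Sla (-3.08 ± 0.40) and Cd48 (-1.60 ± 0.28). Between the sorted and the unsorted lymphomas 0 of the 79 were called by limma, and 9 had an unadjusted p under 0.05.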

How the data were processed

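RNA of 12 samples was measured on Affymetrix Mouse430 2.0 arrays. The values deposited for each probe set are linear intensities; the authors used RMA (robust multi-array average), per the submitters' processing notes, with no version given. Their log2 was tested with limma 3.58.1 (R 4.3.3), two-sided, by lmFit and eBayes: 1 mean per group over 12 arrays, a shared spread, and Benjamini-Hochberg adjustment over 12797 genes above log2 6.33 (intensity 80.2) on at least 2 arrays. The fit was tested on simulated data in which all groups of a gene had the same spread. That test cannot show how the fit does where groups differ in spread. Of 45101 probe sets, 34945 had 1 gene symbol, 932 several and 9160 none, and 64 controls stayed out. Replicates are called biological in the labels; p-values measure the spread between these samples. Groups of 1 array took the spread of the others. The same-numbered arrays did not deviate together (correlations of -0.0196 to 0.0137 for DP thymocytes and lymphomas, 0.0983 for HSC and LSC), so numbers were not taken as pairs.

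The 9 genes and all lists were chosen with earlier results of these data known. Named were all 9 genes, up to 8 called pathway genes per comparison by size of difference, and the 5 genes most correlated with the chains. Markers of B cells were also summed (intensity 3720 in the sorted lymphoma, 18500 to 33500 in the unsorted and 16400 to 19100 in DP thymocytes). Ighm was the highest of that list in DP thymocytes (13.86 to 14.10). Lymphoma 3 had the highest sum, with Ms4a1 at 10.74 against 6.59 and 6.02 in lymphomas 1 and 2. H2-Aa was 12.03 to 12.72 in the unsorted lymphomas. Alternatives covered the filter, the probe set rule, normalization, the variance model, the arrays in the fit and each array left out. Arrays have no read depth; their number limits the precision.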

Additional observations from a re-analysis of the deposited data

Results flagged for a closer look

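For 7 of the 9 genes the change from normal to diseased cells differed between the T cell side and the stem cell side by limma's test of the difference itself (adjusted p under 0.05). The differences of the contrasts were -2.79 for Cd3e, -5.68 for Cd3d, -6.05 for Cd3g, -4.35 for Zap70, -3.04 for Lat, -2.10 for Lcp2 and -4.79 for Cd2 on the log2 scale. For these genes the lymphoma mean differed from the DP mean by -1.34 to -0.50, with 0 calls, while both LSC arrays were above both HSC arrays. Zap70 (-2.56) and Cd2 (-3.60) were not called once values under log2 6.33 were set to that level. Lcp2 (-1.87) was not called with the mean of its probe sets. Zap70 probe set 1439749_at gave -0.05, while 1440178_x_at gave -2.18 and was called.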

How the results depend on the processing

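With all 12 arrays, 0 of the 9 genes were called in lymphoma against DP thymocytes. The count was 1 (Cd247) with only the groups of the contrast in the fit, and 1 with the LSC arrays left out, an alternative chosen after seeing the data. It was 2 (Zap70 and Lcp2) with the unsorted lymphomas alone and 2 with the replicate number as a block, where the samples share only a number; leaving out 1 array at a time gave 0 to 2. Between LSC and HSC the 7 calls became 0 with the 4 arrays alone and 3 to 9 with 1 array left out, and for the difference of the contrasts the 7 calls became 2 with the sorted lymphoma alone and 4 to 8 with 1 array left out. The replicate block gave 7 and 5 calls there. Counts over all genes moved as well. With the unsorted lymphomas alone 698 genes were called lower than in DP thymocytes, against 407 with all 12 arrays. For the difference of the contrasts 174 to 179 were called lower without 1 DP array, against 460 with all 12. Leaving out an HSC or LSC array left 1 array in that group. The cell line and sorted lymphoma contrasts kept 0 calls in every fit run.

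Signs turned only for differences that the 12-array fit did not call, except Zap70 between LSC and HSC, which was -0.04 by probe set 1439749_at. For Zap70 in the cell line the values were -0.10 with the mean of probe sets, -0.04 with quantile normalization, -0.44 without lymphoma 3 (up to 0.35 with another array left out), and -0.02 and -0.29 by its other probe sets. Plcg1 between lymphoma and DP thymocytes was -0.23 with the mean of probe sets and -0.65 by probe set 1450360_at, which gave 0.08 in the cell line. For sorted against unsorted lymphomas Plcg1 was -0.06 with quantile normalization and -0.10 without lymphoma 3 (up to 0.26 with another array left out), Cd3d -0.04 without lymphoma 2 (up to 0.41), and Zap70 -0.25 by probe set 1439749_at. Cd3e in the cell line was -0.01 without lymphoma 3 (up to 0.25), and Cd247 there 0.13 by probe set 1426079_at. Fits of single probe sets were added after seeing the data, and the cause of these turns was not tested. Subtracting array medians moved the median of all genes between sorted and unsorted lymphomas from 0.05 to 0.16.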
